A study of Mus musculus with 3 samples.

Results

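The Sox genes encode transcription factors that bind DNA through an HMG box related to that of Sry, the testis-determining factor. Every probe set of the array whose annotation names exactly 1 gene, that gene being Sox2, Sox4, Sox5, Sox6, Sox9, Sox10, Sox11, Sox12, Sox17 or Sox18, was taken, whatever its signal. This gave 38 probe sets of 10 genes, out of 34945 probe sets of 18193 genes with exactly 1 symbol and 45037 probe sets that are not controls. They were measured in the genital tubercle, the bud of the external genitalia, dissected from mouse embryos at embryonic day 14 (Theiler stage 22). There were 3 samples, unpooled per the labels and hybridised to 1 array each. All came from FVB/N females mated to males carrying the SMAA/EYFP transgene, whose fluorescence guided the dissection and which the series title ties to the smooth muscle actin gene Acta2, and all are labelled male. The labels differ in 1 respect, the landmark of limb development. Fingers were visible in the embryo of replicate 3, whereas the footplates of replicates 1 and 2 were indented at their borders. No treatment or mutation was compared, and the labels give neither litter nor batch.

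Values below are signals as deposited, a linear brightness per probe set. A probe set was called above background in a sample when its signal exceeded the 95th percentile of a set of 81 that measure sensory receptors (olfactory, vomeronasal, bitter taste). That level was 197 in replicate 3, against 136 and 253 in replicates 1 and 2. Differences between samples are on the log2 scale after the samples were aligned on their median signal. Xist, transcribed from the inactive X chromosome of female cells, read 61883 in replicate 3, against 8.05 and 118 in replicates 1 and 2, and 3 of 3 measured Y-linked genes were above background in replicates 1 and 2 and below it in replicate 3. The male label of replicate 3 is thus in doubt, and its landmark, its apparent sex and any other trait of that embryo cannot be told apart. Each embryo gave 1 array, so an SD over the samples mixes the embryo with its dissection, amplification and hybridisation. In whole tissue, fewer cells of a type and less RNA per cell cannot be told apart either.

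Sox factors act in groups of close relatives that often replace one another. Sox2, of group B1, keeps progenitor cells of neural tissue and of several epithelia undifferentiated. The group C genes Sox4, Sox11 and Sox12 are active in immature neurons and embryonic mesenchyme, and the group D genes Sox5 and Sox6 assist the group E factor Sox9 in forming cartilage. Sox10, also of group E, specifies glia and melanocytes from the neural crest, and the group F genes Sox17 and Sox18 act in vascular endothelium, Sox17 also in endoderm.

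Most members were present in the tubercle. At least 1 probe set was above background in 3 of 3 samples for 8 of 10 genes, against 60.7% of the 18193 genes measured. The exceptions were Sox5 and Sox10. This comparison by gene is uneven, since a gene with more probe sets has more chances to pass. The members have 38 probe sets for 10 genes, against 34945 for 18193. By probe set, 20 of 38 (52.6%) were above background in 3 of 3 samples, which is near the 48.0% of all probe sets and the 53.6% of those with 1 gene symbol. A further 5 were above it in some samples and 13 in none. Without replicate 3 the counts were again 8 genes and 20 probe sets. Without replicate 2, whose background is the highest, they were 10 genes and 22 probe sets. All 6 probe sets of Sox11 passed, whereas 5 of the 8 genes with several probe sets had some that passed and some that did not, against 48.3% of the 9010 such genes on the array. Nearest to the limit were a Sox9 probe set whose lowest ratio to background in any sample was 1.22 and a Sox4 probe set at 1.24 among those that passed, and Sox5 and Sox10 probe sets at 0.903 and 0.901 among those that did not.

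**Figure D1:**
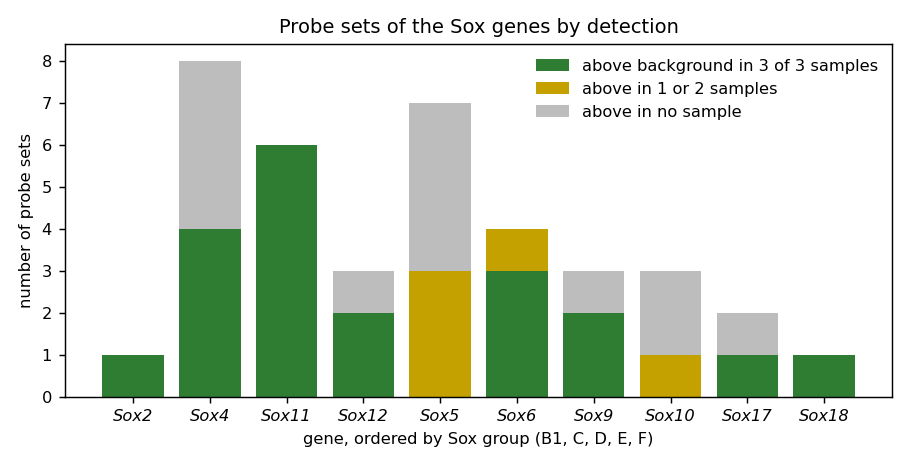
Number of probe sets (vertical axis) of each Sox gene (horizontal axis, ordered by Sox group), coloured by whether they were above background in 3 of 3 samples, in 1 or 2, or in none. All 6 probe sets of Sox11 passed in every sample, and none of the 7 of Sox5 did.

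**Figure D2:**
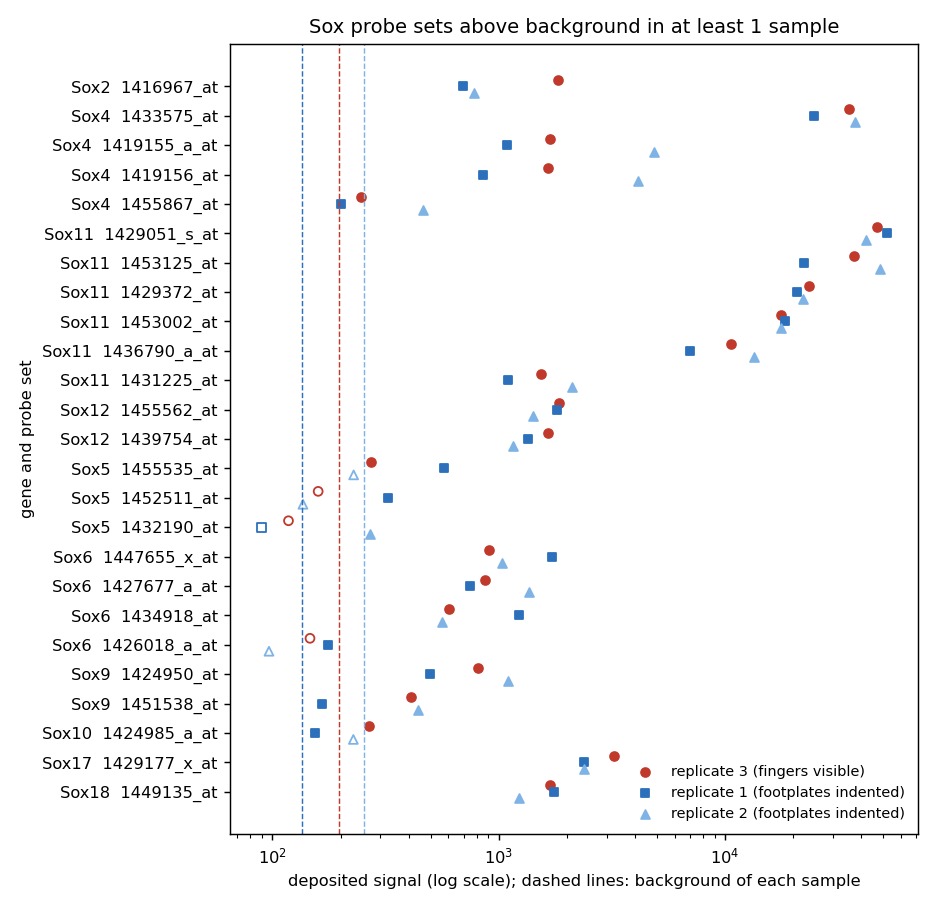
Deposited signal (horizontal, log scale) of the 25 Sox probe sets that passed in 1 sample or more, with 1 symbol per sample, open where the signal is not above that sample's background (dashed lines at 197, 136 and 253). Sox2 is highest in replicate 3, while probe sets of Sox6 differ in whether replicate 1 or 2 is the highest; brightness is not comparable between probe sets.

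Sox2 has 1 probe set (1416967_at), which read 1824 in replicate 3, against 695 and 781 in replicates 1 and 2. The embryo with visible fingers therefore stood apart, and the other embryos lay close together. After alignment Sox2 was 2.47-fold higher in replicate 3 than in replicate 1 and 2.57-fold higher than in replicate 2. It was the 1 Sox probe set of the 20 above background in 3 of 3 samples to exceed 2-fold over both other samples, as did 1.06% of all 21612 such probe sets, and no Sox probe set was over 2-fold lower than both, as were 0.828%. The landmark difference, replicate 3 minus the mean of replicates 1 and 2, was 1.33 ± 0.60 (log2, SE), with an unadjusted limma p of 0.0903 and an adjusted p of 1.00, so it did not pass the test. Quantile normalization gave 1.35 and alignment on all probe sets 1.25. With alignment on all probe sets, replicate 3 minus replicate 1 was 0.98, just under 2-fold, so Sox2 no longer exceeded 2-fold over both.

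Cell types in which Sox2 is known were measured beside it. Among epithelial genes 11 of 12 passed in every sample, and the signals of the list summed to 88330 in replicate 3, against 118133 and 101377 in replicates 1 and 2. The basal epithelial factor Trp63 read 19204 in replicate 3, against 23542 and 18806, and Epcam, Perp and Krt14 were the other brightest genes of this list, at 15995 ± 1357, 19349 ± 2632 and 17251 ± 4646 (SD, n = 3). The sum was thus lowest in the sample where Sox2 was highest, as was Krt14 (11895 in replicate 3, against 19672 and 20187). Trp63, Epcam (15568, against 17515 and 14903) and Perp (18323, against 22340 and 17385) were instead lowest in replicate 2. Neuronal genes passed in 5 of 9, with sums of 3552 in replicate 3 against 3377 and 3709. Genes of brain and spinal cord passed in 0 of 6, with sums of 380 in replicate 3 against 216 and 453, and 5 of the 6 were above background in no sample. The part of these cells in the Sox2 difference was not tested. Of other relatives, Sox21, a group B repressor, read 513 in replicate 3 against 356 and 432 on its brighter probe set, and the group B1 gene Sox3 257 against 198 and 255.

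The bases before the start of Sox2 are shown because it is the member that differed most in the embryo with visible fingers. They hold 72.0% G or C, against a median of 52.4% over 32851 mouse promoters. The sequence is RefSeq's, build GRCm38.p6, chr3:34649745-34649994, plus strand. Capitals mark matches on either strand to CCAAT, a motif bound by NF-Y, whose reverse complement reads ATTGG (33.8% of promoters hold one in this window). They also mark the GC box GGGCGG and its reverse complement CCGCCC, held by 32.7%.
Sox2: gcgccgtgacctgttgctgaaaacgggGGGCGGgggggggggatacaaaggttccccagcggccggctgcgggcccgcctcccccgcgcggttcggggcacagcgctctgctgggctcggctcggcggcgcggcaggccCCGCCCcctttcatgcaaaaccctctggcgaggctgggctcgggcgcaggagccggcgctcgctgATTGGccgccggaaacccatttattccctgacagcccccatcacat

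The group C genes gave the steadiest and the least steady readings of the family. They also held most of its 20 probe sets above background in 3 of 3 samples, 6 of Sox11, 4 of Sox4 and 2 of Sox12. Extremes are therefore likelier to fall among them. Sox11 read 46793 in replicate 3, against 52119 and 42048 in replicates 1 and 2, on its brightest probe set (1429051_s_at), or 46986 ± 5038 (SD, n = 3). Its probe set 1429372_at varied least of the 20 Sox probe sets above background in 3 of 3 samples, at 23531 in replicate 3 against 20797 and 22182, with an SD of 0.11 on the log2 scale. No embryo stood apart on either probe set. The suffix of the first marks probes shared by several transcripts.

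Other probe sets of Sox11 ordered the samples in another way. Probe set 1453125_at read 37185 in replicate 3, against 22266 and 48329 in replicates 1 and 2, so that replicate 2 was the highest and replicate 1 the lowest. Probe set 1436790_a_at (10669 in replicate 3, against 7007 and 13459) and 1431225_at (1545, against 1098 and 2099) had the same order. Probe set 1453002_at did not, at 17622 against 18463 and 17775.

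Sox4 read 35495 in replicate 3, against 24806 and 37480 in replicates 1 and 2, on its brightest probe set (1433575_at), or 32594 ± 6817 (SD, n = 3). That probe set was 1.29-fold higher in replicate 2 than in replicate 1, a difference of 0.37 on the log2 scale that turned to -0.11 with alignment on all probe sets. Others of the same gene were much further apart. Probe set 1419155_a_at read 1686 in replicate 3, against 1087 and 4846, and 1419156_at 1650 against 851 and 4125. These were 3.81-fold and 4.14-fold higher in replicate 2 than in replicate 1, with log2 SDs of 0.99 and 1.03, the largest among Sox probe sets above background in 3 of 3 samples. Probe set 1455867_at (246 in replicate 3, against 201 and 462) went the same way, at 1.96-fold. The other 4 Sox4 probe sets were above background in no sample. Of the 4 that the annotation ties to one GenBank sequence, 2 were above background in every sample and 2 in none, so 1 source sequence gave both outcomes.

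Sox12, the remaining group C gene, read 1853 in replicate 3, against 1812 and 1415 in replicates 1 and 2, on 1455562_at. Its second detected probe set, 1439754_at, read 1657 against 1345 and 1157. Both were lowest in replicate 2, and their landmark differences lay 0.20 apart on the log2 scale. The remaining Sox12 probe set was above background in no sample.

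Mesenchymal genes, measured because group C factors act in such cells, passed in 10 of 10, with sums of 292571 in replicate 3 against 264907 and 281656. The brightest were Col3a1 (62804 ± 3772), Isl1 (48464 ± 4187), the limb and genital bud factor Hoxd13 (40748 ± 2303) and Col1a2 (39979 ± 4218; SD, n = 3). As deposited, the sum of the list was lowest in replicate 1, as were 1433575_at of Sox4 and 4 of the 6 Sox11 probe sets. After alignment only 3 of the 10 mesenchymal genes were higher in replicate 2 than in replicate 1. Sox11 probe set 1429372_at was then lowest in replicate 2.

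The bases before the starts of the group C genes are shown because these genes held both the steadiest and the most variable detected probe sets of the family. Capitals mark the motifs named for Sox2. Each of these genes holds CCAAT on one strand or the other, Sox4 in 4 places and Sox11 and Sox12 in 1 each, and GGGCGG is found in Sox11 in 2 places and Sox12 in 3. G and C make up 50.8%, 58.0% and 74.4% of the bases in Sox4, Sox11 and Sox12. The windows are chr13:28953700-28953949 (Sox4), chr12:27342719-27342968 (Sox11) and chr2:152398047-152398296 (Sox12), all on the minus strand, from RefSeq, GRCm38.p6. A match to a motif is a description of letters and does not show binding.
Sox4: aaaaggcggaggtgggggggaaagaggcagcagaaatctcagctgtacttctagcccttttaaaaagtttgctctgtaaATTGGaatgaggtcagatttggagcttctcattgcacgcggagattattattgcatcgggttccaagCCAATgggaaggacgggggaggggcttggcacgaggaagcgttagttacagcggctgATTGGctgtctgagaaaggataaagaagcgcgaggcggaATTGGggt
Sox11: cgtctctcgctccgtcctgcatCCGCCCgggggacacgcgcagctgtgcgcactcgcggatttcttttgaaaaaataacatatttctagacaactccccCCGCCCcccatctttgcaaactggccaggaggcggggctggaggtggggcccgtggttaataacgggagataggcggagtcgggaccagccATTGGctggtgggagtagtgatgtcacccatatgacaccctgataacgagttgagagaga
Sox12: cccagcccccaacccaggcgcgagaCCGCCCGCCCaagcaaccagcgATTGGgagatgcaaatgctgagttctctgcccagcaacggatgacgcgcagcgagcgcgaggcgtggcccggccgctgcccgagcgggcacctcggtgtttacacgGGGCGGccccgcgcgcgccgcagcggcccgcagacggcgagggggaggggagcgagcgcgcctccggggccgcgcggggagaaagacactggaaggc

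The probe sets of Sox6 differed in the sample they read highest. Sox6 read 908 in replicate 3, against 1725 and 1032 in replicates 1 and 2, on 1447655_x_at, and 605 against 1232 and 562 on 1434918_at. Replicate 1 was the highest on both, and stood 1.96-fold and 2.56-fold above replicate 2. By contrast, 1427677_a_at read 871 in replicate 3 against 748 and 1368, so replicate 2 was the highest and replicate 1 the lowest. Probe set 1426018_a_at was above background in replicate 1 alone, where it read 176. The suffix of 1447655_x_at marks a probe set with probes that may also match other transcripts.

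Sox5 showed a like split, with no probe set above background in 3 of 3 samples. Its probe set 1455535_at read 272 in replicate 3, against 571 and 229 in replicates 1 and 2. It was not above background in replicate 2, which makes replicate 1 at least 2.64-fold higher than replicate 2. Probe set 1452511_at read 159 in replicate 3 against 324 and 136, and passed in replicate 1 alone, at least 1.74-fold over replicate 3. Probe set 1432190_at read 118 in replicate 3 against 89.7 and 271, and passed in replicate 2 alone, at least 1.71-fold over replicate 1. The other 4 probe sets of Sox5 were above background in no sample. Which of replicates 1 and 2 reads higher in Sox5 thus rests on the probe set chosen.

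Sox6 acts also in maturing red cells and in skeletal muscle fibres, and both lists differed between these samples. Skeletal muscle genes passed in 5 of 10, with sums of 3039 in replicate 3 against 23461 and 7398 in replicates 1 and 2. The embryonic myosin Myh3 read 570 in replicate 3 against 9136 and 997, and cardiac actin Actc1 1201 against 10655 and 3639. Erythroid genes passed in 8 of 10, and summed to 82903 in replicate 3 against 92646 and 101119, a sum dominated by the globin gene Hbb-y (77722, against 59853 and 86889). The anion exchanger Slc4a1 read 1686 in replicate 3 against 18738 and 6337, and Tal1, a regulator of blood formation, 755 against 4505 and 961. Of the genes of both lists above background in every sample, Hbb-y, Hbb-bh1, Hba-x and Des read highest in replicate 2 as deposited. The others, with Myh3, Actc1, Slc4a1 and Tal1 among them, read highest in replicate 1. So did 2 of the 3 Sox6 probe sets above background in every sample. Genes of liver, which lies outside the dissected tissue, followed suit, with sums of 9252 in replicate 3 against 110988 and 52096 and with 4 of 6 passing in every sample, Afp, Alb, Ttr and Apoa2. Afp read 7049 in replicate 3 against 52165 and 40064, and Alb 1400 against 42766 and 9061. The part of liver RNA, muscle and blood cells in the Sox6 and Sox5 readings was not tested.

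The bases before the start of Sox5 and before the outermost of 6 annotated starts of Sox6 are shown because these genes gave the opposed probe sets. G and C make up 39.6% and 45.2%, and neither motif marked above lies in these windows. Nor, on either strand, does the TATA motif TATAAA, which 12.4% of promoters hold, or the Sox core motif AACAAT, which 9.42% hold. Another Sox6 start, at chr7:115824711-115824960, has 2 matches to AACAAT. The windows are chr6:143947107-143947356 (Sox5) and chr7:116038745-116038994 (Sox6), minus strand, GRCm38.p6, from RefSeq.
Sox5: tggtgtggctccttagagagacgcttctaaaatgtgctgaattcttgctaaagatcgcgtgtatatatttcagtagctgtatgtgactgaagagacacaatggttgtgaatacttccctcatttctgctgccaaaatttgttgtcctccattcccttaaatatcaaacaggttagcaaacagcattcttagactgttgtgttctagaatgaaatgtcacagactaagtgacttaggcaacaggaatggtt
Sox6: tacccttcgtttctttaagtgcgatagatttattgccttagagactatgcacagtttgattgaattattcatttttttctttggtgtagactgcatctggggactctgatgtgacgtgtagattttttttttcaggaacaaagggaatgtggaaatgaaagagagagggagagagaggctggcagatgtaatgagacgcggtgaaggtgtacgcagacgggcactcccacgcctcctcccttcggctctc

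Sox9, the master factor of cartilage and of Sertoli cells, read 808 in replicate 3, against 497 and 1101 in replicates 1 and 2, on 1424950_at. The second detected probe set, 1451538_at, made from the same annotated sequence, read 408 against 165 and 440. Replicate 1 was the lowest on both, at 1.89-fold and 2.27-fold below replicate 2 after alignment, and the order of replicates 1 and 2 held under each of the alignments tried. The remaining Sox9 probe set was above background in no sample. Of the cartilage genes 2 of 12 were above background in 3 of 3 samples (Hapln1, 1747 ± 270, and Col9a3, 533 ± 111; SD, n = 3). A further 6 of 12 were above it in none, and the others in 1 or 2 samples. Col2a1, the main collagen of cartilage and a Sox9 target, read 187 in replicate 3, where it was not above background, against 501 and 473. The list summed to 3431 in replicate 3 against 3485 and 4045, and Hapln1 made up much of each sum (1779 in replicate 3 against 1461 and 2000). Col9a3, like Col2a1, was highest in replicate 1 (427 in replicate 3 against 648 and 523), where both Sox9 probe sets were lowest. Hapln1 went the other way, lowest in replicate 1 and highest in replicate 2, the order of Sox9 on 1424950_at. Of the gonad list 1 of 8 genes passed in 3 of 3 samples, Star (349 ± 88.5; SD, n = 3).

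Sox10 was near the limit of detection. Its probe set 1424985_a_at read 266 in replicate 3, against 155 and 228 in replicates 1 and 2, and was not above background in replicate 2. The 2 other probe sets were above background in no sample. Genes of Schwann cells and glia passed in 4 of 10, with the receptor Erbb3, a Sox10 target, at 6116 in replicate 3 against 9777 and 5572, Mbp at 1041 ± 24.2, Gfra3 at 458 ± 63.6 and Ngfr at 422 ± 103 (SD, n = 3). The list summed to 8887 in replicate 3 against 12543 and 8143, sums dominated by Erbb3. S100b, Dhh and Cdh19 were above background in no sample.

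Sox17 read 3237 in replicate 3, against 2383 and 2386 in replicates 1 and 2, on 1429177_x_at, whose suffix marks a probe set with probes that may also match other transcripts. It was highest in replicate 3. The other Sox17 probe set, 1421657_a_at, was above background in no sample (155 in replicate 3, against 69.1 and 209). The detection of Sox17 thus rests on the first. Sox18, a factor of early blood and lymph vessels, read 1692 in replicate 3, against 1749 and 1235 on its 1 probe set, lowest in replicate 2. Their relative Sox7 read 741 in replicate 3, against 788 and 432, likewise lowest in replicate 2.

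Endothelial genes passed in 11 of 13, with sums of 17309 in replicate 3 against 14435 and 15208. The brightest were Erg (2683 ± 689), the receptor Kdr (2205 ± 976), Esam (2058 ± 334) and Cdh5 (2052 ± 748; SD, n = 3). The sum was highest in replicate 3, as was Sox17, but the brightest genes were split. Erg and Esam read highest in replicate 3 as deposited. Kdr read highest in replicate 2 (2569 in replicate 3, against 1100 and 2947 in replicates 1 and 2). Cdh5 read highest in replicate 1 (1692, against 2912 and 1553). Lymphatic genes passed in 3 of 5, with Reln at 2384 ± 946, Pdpn at 1803 ± 293 and Flt4 at 554 ± 92.5 (SD, n = 3), and with sums of 3746 in replicate 3 against 5686 and 6040. Prox1, which Sox18 switches on in lymphatic precursors, was above background in no sample, and Lyve1 in replicate 1 alone. The part of endothelium in the Sox17 and Sox18 differences was not tested.

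Of 10 other Sox genes measured by 15 probe sets, 4 had a probe set above background in 3 of 3 samples. Besides Sox3, Sox7 and Sox21 this was the group D gene Sox13, at 378 in replicate 3 against 381 and 469.

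The landmark contrast set the embryo with visible fingers against those with indented footplates, with limma across the 29065 probe sets that passed in 1 sample or more. None was called at a Benjamini-Hochberg adjusted p under 0.05, and an unadjusted limma p under 0.05 was reached by 604 (2.08%). Of the 25 Sox probe sets fitted, 0 were called and 0 had an unadjusted p under 0.05. The contrast has 1 residual degree of freedom and rests on a lone sample assumed to vary like the others. Of the 20 Sox probe sets above background in 3 of 3 samples, 13 had a difference above 0, against 52.9% of all such probe sets, and the median was 0.16 against 0.031. Differences ran from -0.53 (Sox6, 1447655_x_at) to 1.33 (Sox2). That of Sox6 rested on which sample replicate 3 was set against, at -0.019 without replicate 1 and -1.03 without replicate 2. Sox17 was next to Sox2 among the brightest probe sets of each gene, at 0.47 ± 0.61 (SE), and Sox4, Sox12 and Sox18 lay at 0.25 ± 0.62, 0.24 ± 0.65 and 0.23 ± 0.68. Without replicate 2, Sox12 turned to -0.071 and Sox18 to -0.15, and Sox4 lay at 0.087 without replicate 1 and 0.41 without replicate 2. These Sox4 values are of 1433575_at. Its other detected probe sets lay below 0, at -0.42 (1419155_a_at), -0.28 (1455867_at) and -0.16 (1419156_at). The sign of the Sox4 difference thus rests on the probe set chosen. Sox11, at 0.026 ± 0.64, turned below 0 without alignment (-0.00061), with quantile normalization (-0.017) and with alignment on all probe sets (-0.060). Without replicate 2 it was -0.26, and without replicate 1 it was 0.32. Sox9 lay at 0.15 ± 0.72, and turned to -0.28 without replicate 1. Its second detected probe set, 1451538_at, lay at 0.62, above Sox17. Replicate 3 was the highest in 6 of the 20, against 27.5% of all such probe sets. It was over 2-fold above replicate 1 in 2 (Sox2 and 1 of Sox9; 9.98% of them) and below it in 2, both of Sox6 (3.77%). Against replicate 2 it was over 2-fold higher in 1, Sox2 (4.59%), and lower in 2, both of Sox4 (5.25%). For Sox5 and Sox10, not above background in every sample, no landmark difference is given.

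**Figure D3:**
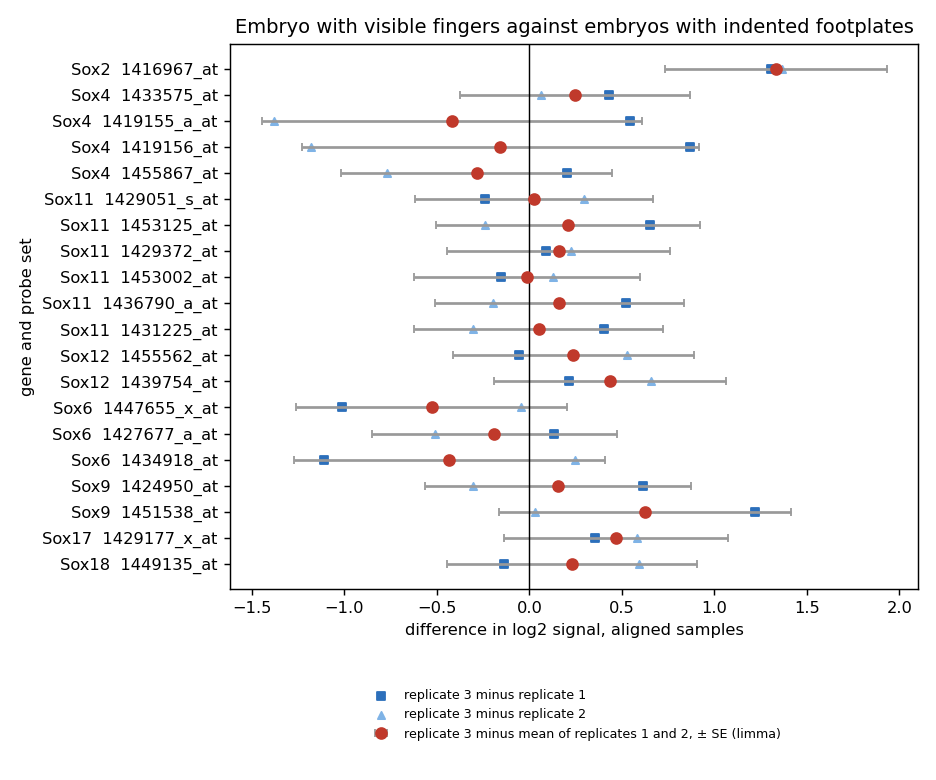
Difference in aligned log2 signal (horizontal) of the 20 Sox probe sets above background in 3 of 3 samples. Circles with bars are the limma difference of replicate 3 from the mean of replicates 1 and 2 with its SE, squares and triangles replicate 3 minus replicate 1 or 2 alone. With this alignment only Sox2, at 1.33 ± 0.60, has both single differences above 1.

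Spread between the embryos was like that of the array as a whole. The median SD of the 20 Sox probe sets was 0.38 on the log2 scale, against 0.36 over all 21612, and ran from 0.11 (Sox11) to 1.03 (Sox4). Without replicate 1 it was 0.21. Over 2-fold between the highest and lowest sample were 6 of the 20, namely 2 of Sox4, 2 of Sox6 and 1 each of Sox9 and Sox2, near the 28.0% of all such probe sets. Without replicate 1 the count was 3, and without replicate 3 it was 4.

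Between replicates 2 and 1 the direction depended on the probe set in some genes, Sox6 and Sox11 among those detected in every sample. Probe sets of Sox4, Sox9 and Sox12 each kept 1 direction after alignment on probe sets above background. Replicate 2 was above replicate 1 in 10 of the 20 Sox probe sets, against 41.6% of the 21612 above background in 3 of 3 samples, and in 13, 12 and 9 without alignment, with quantile normalization and with alignment on all probe sets. Replicate 2 was highest and replicate 1 lowest in 8 of the 20 Sox probe sets, an order found in 19.2% of those 21612, and the reverse order stood in 5, against 27.0%. With alignment on all probe sets the counts were 6 (10.9% of the 21612) and 8 (47.4%). Over 2-fold higher in replicate 2 than in replicate 1 were 3 (13.2% of the 21612), and over 2-fold lower 1 (6.97%). Of the 5 Sox genes with several probe sets above background in 3 of 3 samples, Sox6 and Sox11 held differences of both signs, as did 57.8% of 4749 such genes, and both reached beyond 0.5 in each direction, as did 20.9%. Sox6 spanned -1.36 to 0.64 (replicate 2 minus replicate 1) and Sox11 -0.54 to 0.89. A log2 gap at least as wide as that of Sox6, 2.00, was found in 22.8% of the 1145 genes with as many detected probe sets. Sox4 spanned 0.37 to 2.05, a gap of 1.68 that is itself the median over the 467 genes with 4 detected probe sets. Sox12, from -0.58 to -0.44, and Sox9, from 0.92 to 1.19, had narrow gaps of 0.14 and 0.26. For the landmark difference the widest gap within a gene was 0.66, in Sox4, against a median of 0.77 for those 467 genes. The widest gap in a Sox gene was 1.44 without replicate 1 and 1.24 without replicate 2.

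The array's controls of RNA length moved with these samples. The ratio of the 5′ to the 3′ probe set of β-actin was 0.226 in replicate 3, against 0.135 and 0.452 in replicates 1 and 2, and that of Gapdh 0.0711, against 0.0465 and 0.0672. The β-actin order, replicate 2 highest and replicate 1 lowest, is the one found in the 8 Sox probe sets above. Those belong to Sox4, Sox6, Sox9 and Sox11. The Gapdh ratio had another order, with replicate 3 highest and replicate 1 lowest. Positions of the probes in their transcripts are not used here, and the part of RNA length in the differences between probe sets of one gene was not tested.

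**Figure D4:**
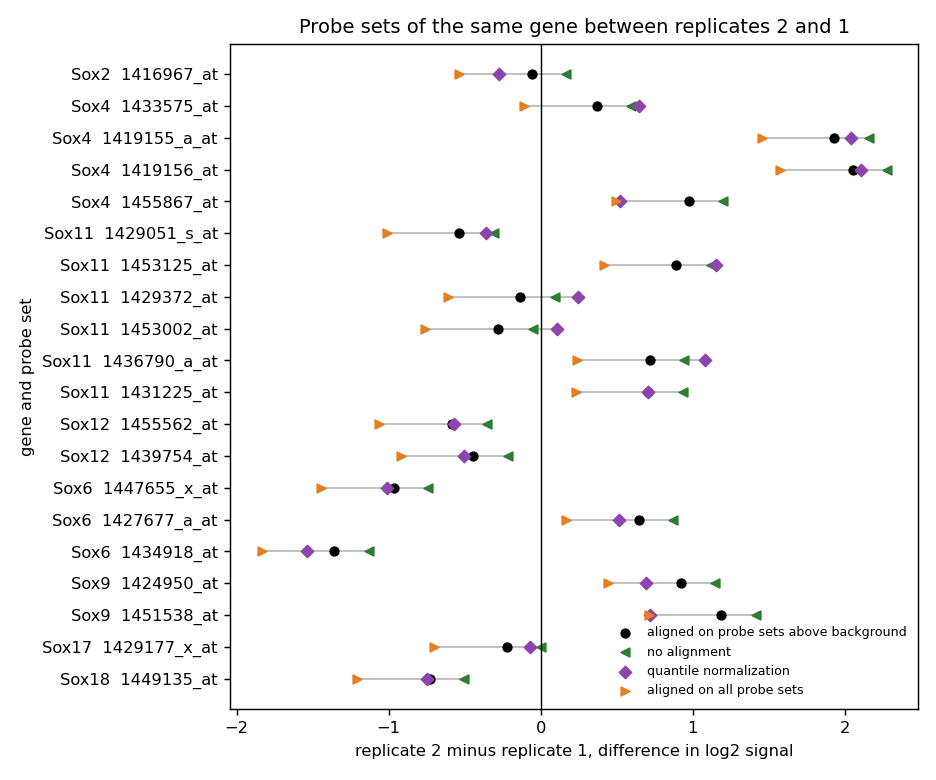
Replicate 2 minus replicate 1 in log2 signal (horizontal) for the 20 Sox probe sets above background in 3 of 3 samples under 4 alignments of the samples, joined by grey lines. Sox6 has a probe set above 0 and others below 0 under each alignment, both probe sets of Sox9 stay above 0, and both of Sox12 stay below it.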

How the data were processed

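Per the submitters' processing notes the deposited intensity values came from GCOS. Its version and algorithm were not given in the sources used here. RNA was amplified in 2 rounds, per the labels. The 2% trimmed mean is 1500.0 in each of the 3 samples, which points to global scaling before deposit. No scanner files were used, and 0 columns were left unmatched. Of 45101 probe sets, 64 controls were set aside. Symbols came from the platform annotation and matched the RefSeq table of GRCm38.p6 through 34741 Entrez identifiers, with 0 changed.

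Signals under 1 were set to 1, log2 transformed and aligned on the median of probe sets above background in 3 of 3 samples, whose sample medians differed by 0.23. Genes outside the family were read from their brightest probe set. limma 3.58.1 in R 4.3.3 was used with lmFit and eBayes, two-sided, adjusted over all probe sets fitted, and was tested on simulated data. A fold against a sample not above background is a lower bound, taken against that background. All members were named, other Sox genes where above background in 3 of 3 samples, and of each marker list up to 4 such genes of highest mean signal. Col2a1, S100b, Dhh, Cdh19, Prox1, Lyve1, Hbb-bh1, Hba-x and Des were named after their values were seen. Alternatives changed the background percentile, the alignment, the floor, the probe sets fitted and the samples. The members and lists were chosen with earlier results of these data known. No pair of samples shared over 10 identical values, and none was merged. Precision is limited by the number of arrays, 3. Promoter sequences matched 6 of 10 genes, and the rest were not used here.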

Additional observations from a re-analysis of the deposited data

How the results depend on the processing

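The limma contrast called 86 probe sets when samples were aligned on the median of all probe sets, an alternative chosen after seeing the data, and 1 when it was fitted on those above background in every sample alone. No Sox probe set was called under any alternative fit. With a lone sample on 1 side of the contrast, this does not show that the Sox genes were unchanged. With the background at the 90th percentile of the receptor probe sets, 22 Sox probe sets and 10 genes were above background in 3 of 3 samples, and at the 99th 19 and 8. Leaving out 1 sample, the count over 2-fold ranged from 3 to 5, and the widest gap within a gene in the landmark difference from 1.24 to 1.44. The landmark difference of Sox11 turned below 0 without alignment (-0.00061), with quantile normalization (-0.017) and with alignment on all probe sets (-0.060). Leaving out replicate 1 or 2, it ranged from -0.26 to 0.32 for Sox11, from -0.071 to 0.55 for Sox12, from -0.28 to 0.60 for Sox9 and from -0.15 to 0.62 for Sox18, and the lowest value came without replicate 1 for Sox9 and without replicate 2 for the others. For Sox6 it was -0.019 without replicate 1 and -1.03 without replicate 2, and for Sox4 0.087 and 0.41. These values are of the brightest probe set of each gene. Sox2 lay between 1.25 and 1.39 under the alternatives run. Alignment on all probe sets shifts replicate 2 minus replicate 1 to a median of -0.63 over the 21612 probe sets above background in 3 of 3 samples, against -0.15, and the brightest Sox4 probe set then lay at -0.11. The causes were not tested. No paired analysis was possible because all samples belong to 1 group. Signals near background, as for Sox5 and Sox10, limit what can be read from them.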
